A study of Caenorhabditis elegans with 18 samples.

Results

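In embryo RNA of Caenorhabditis elegans, assembled transcript loci that carry the name of a piRNA gene and of no other gene were followed across 6 strains. A name was counted where an annotated gene with the prefix 21ur- stood alone in the gene label of a transcript start. It was kept where every strain had such a start in at least 2 of its libraries. Of 91 piRNA names that stood alone in at least 1 of 18 libraries, 3 met this rule: 21ur-15107, 21ur-5731 and 21ur-15115. They belong to 14295 genes that met the same rule, out of 20574 named alone anywhere in the series. Each of these 3 loci was listed on the strand of its 21ur gene.

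piRNAs of the nematode, also called 21U-RNAs, are very short germline RNAs that guide the Argonaute protein PRG-1 to foreign and transposon-like transcripts. Most are made from their own small transcription units by RNA polymerase II, and many of these units lie within introns or between genes in clusters on chromosome IV. An annotated 21ur gene marks the mature small RNA only. A transcript locus assembled from ordinary RNA-seq is a different object, an exon chain with a start, an end and introns.

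The libraries came from eggs that were freed by bleach from synchronized adults grown at 20 degrees. Each strain had 3 libraries. They were N2, used as wild type, the rbm-5 mutants n5119 and n5132, the mutant uaf-1(n4588), and the double mutants uaf-1(n4588);rbm-5(n5119) and uaf-1(n4588);rbm-5(n5132). uaf-1 encodes the large subunit of the splicing factor U2AF, which binds the polypyrimidine tract before the 3′ splice site, and rbm-5 encodes an RNA-binding protein of the spliceosome. The study asked how RBM-5 modulates splicing that depends on this subunit. The labels do not say whether libraries of a strain were separate cultures, so p-values measure only the spread between these libraries, which may be technical.

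Levels are FPKM, fragments relative to transcript length and to the mapped fragments of the library, as deposited, and the read depth is unknown. A library listed between 53772 and 55828 events, of which 26.7% to 33.7% were at 0. Summed start FPKM was between 1250844 and 2072816 in the 6 libraries with replicate number 1 and between 803936 and 1136360 in the other 12. All 10 embryo markers were listed, with a summed level of 239 to 487 FPKM, and all 10 maternal and germline markers were listed, with 294 to 2496 FPKM. The 7 markers of the mother's soma summed to 0.237 to 4.57 FPKM, and of 8 sperm markers 2 were listed, with at most 0.842 FPKM. A marker counted as listed where it stood alone in at least 1 library. In a library where it did not stand alone it added 0 to the sum. In whole embryos, fewer cells of a type and less RNA per cell cannot be told apart.

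The 91 names were not spread like the annotated piRNA genes. Of 15363 annotated 21ur genes, each 21 bases long, 95.8% lie on chromosome IV. Of the 91 names standing alone, 52 (57.1%) lie on chromosome IV, with 10 on II, 9 on III, 9 on I, 7 on X and 4 on V. The 91 were picked by standing alone, which leaves out labels with several 21ur names or with other genes. The part of this rule in the lower share on IV was not tested. The listed loci were long. Over 373 pairs of a name and a library, the span from the start to the end of the locus ranged from 853 to 19836 bases, with a median of 3145 bases. For 84 names (92.3%) the listed locus overlapped a protein-coding gene on the same strand whose name was absent from the label. For 3 names the locus overlapped no other annotated gene. For 2 it overlapped a gene on the opposite strand only, and for 2 another same-strand gene that is not protein-coding. Where libraries differed, the most frequent case was counted. For 75 names the 21ur gene lay inside the listed locus in every library that listed it.

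A piRNA name standing alone was also the rarer kind of label. Of 6873 locus entries with a 21ur name over the 18 libraries, 373 (5.43%) had that name alone, 102 had several 21ur names and no other gene, and 6398 (93.1%) had other genes as well. Of the 91 names, 36 (39.6%) stood alone in a single library, and none did so in all 18.

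**Figure D1:**
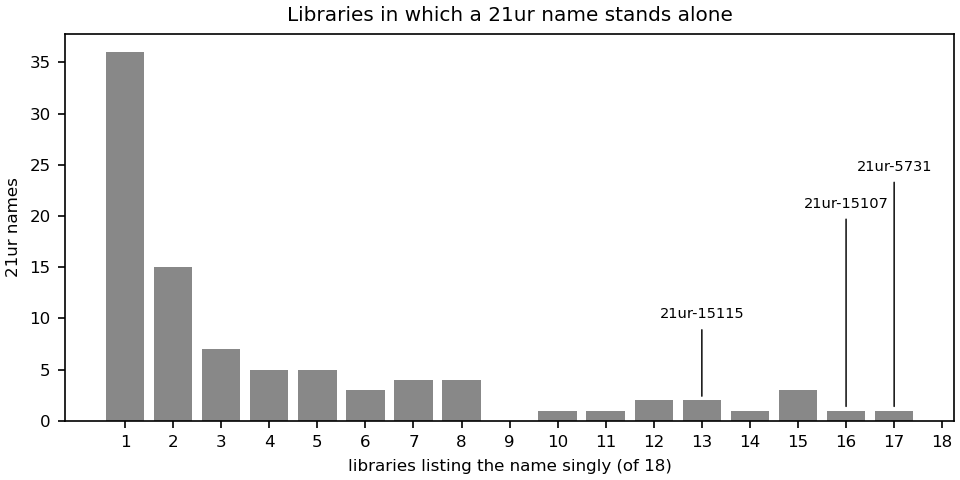
Number of 21ur names (vertical axis) by the number of libraries in which the name stood alone (horizontal axis, of 18 libraries). Most names stand alone in few libraries, 36 of them in 1, while 21ur-15115, 21ur-15107 and 21ur-5731 do so in 13, 16 and 17.

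21ur-15107 was the most abundant of the 3 loci. The 21ur gene (WBGene00170625, sequence name F36G3.5) lies at X:9793229-9793249 of WBcel235, on the minus strand. It overlaps an exon edge at exon 4 of the 5 exons of F36G3.2, a gene on the same strand at X:9792406-9794273. The name stood alone in 16 libraries. In wild type replicate 2 and rbm-5(n5119) replicate 1 the label held F36G3.2 and 21ur-15107 together. F36G3.2 appeared in no other start or end label.

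At the 21ur-15107 locus the inner edge of the last exon matched the annotated gene and the start did not. The inner edge of the last exon was at position 9792995 in 16 of 16 libraries, which is the annotated edge of the last exon of F36G3.2. The inner edge of the first exon was at 9795898 in 14 libraries and at 9795198 in 5, and in rbm-5(n5132) replicate 3 a further start with its edge at 9795184 was listed at 0. None of these 3 edges is annotated. The outermost start lay 950 to 1862 bases upstream of the annotated start of F36G3.2, with a median of 1801 bases. The outer end lay from just past the annotated end (an offset of -1) to 303 bases short of it, with a median of 67 bases short.

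Which first exon was listed varied between libraries of the 21ur-15107 locus. The far exon alone was listed in 10 libraries, 8 of them from strains with uaf-1(n4588) and 2 from strains without it. Both the far and a near exon were listed in 4 libraries, 1 with uaf-1(n4588) and 3 without. Among these 3, rbm-5(n5132) replicate 3 had its near start at 0 FPKM. The near exon alone was listed in rbm-5(n5132) replicates 1 and 2. Joint labels were not counted. Under them wild type replicate 2 had the far exon alone, and rbm-5(n5119) replicate 1 the annotated first exon edge of F36G3.2. These counts were drawn up after the values were seen and carry no test.

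The span of the 21ur-15107 locus was shortest with the near first exon alone, at 2539 to 2699 bases. With the far exon alone it was 3348 to 3724 bases and with both 3361 to 3669 bases. Over all 16 libraries it ran from 2539 to 3724 bases, with a median of 3589 bases. In rbm-5(n5132) it was 2699, 2539 and 3361 bases (mean 2866 ± 436, SD, n = 3). In uaf-1(n4588);rbm-5(n5132) it was 3671 ± 3.21 bases (SD, n = 3), longer in every library than in rbm-5(n5132). In uaf-1(n4588) it was 3688, 3591 and 3636 bases (mean 3638 ± 48.5, SD, n = 3), longer in each library than the 3348 and 3587 bases of the wild-type libraries. The nearest of these, 3591 and 3587 bases, were close. The starts lay 1842, 1791 and 1775 bases upstream of that of F36G3.2 in uaf-1(n4588) and 1783 and 1801 bases in wild type. The ends lay 22, 68 and 7 bases short of its annotated end in uaf-1(n4588) and 303 and 82 bases short in wild type. In the n5119 background the spans overlapped, with 3388 and 3553 bases in rbm-5(n5119) and 3516 to 3724 bases in the double mutant. Across the 6 strains limma's moderated F test gave F = 5.70, with an unadjusted p of 0.00952 and a Benjamini-Hochberg adjusted p of 0.0967, which is above the threshold of 0.05. Of 14295 genes tested in this way 1119 (7.83%) were called, and 0 of the 3 piRNA-named loci. Most calls were of small differences: 1066 of the 1119 had strain means within 5% of each other and 7559 of the genes tested had no spread within any strain. Without rbm-5(n5132) replicate 3, the library of that strain with a long span, the locus was called, with F = 44.0 and an adjusted p of 0.00148. Without replicate 1 or 2 of that strain the adjusted p was 0.723 and 0.620, and without rbm-5(n5119) replicate 1, where this locus has no single label, it was 0.790. The joint label of rbm-5(n5119) replicate 1, not part of this test, had a span of 1557 bases, with its first exon edge at 9794094, the annotated edge of F36G3.2.

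**Figure D2:**
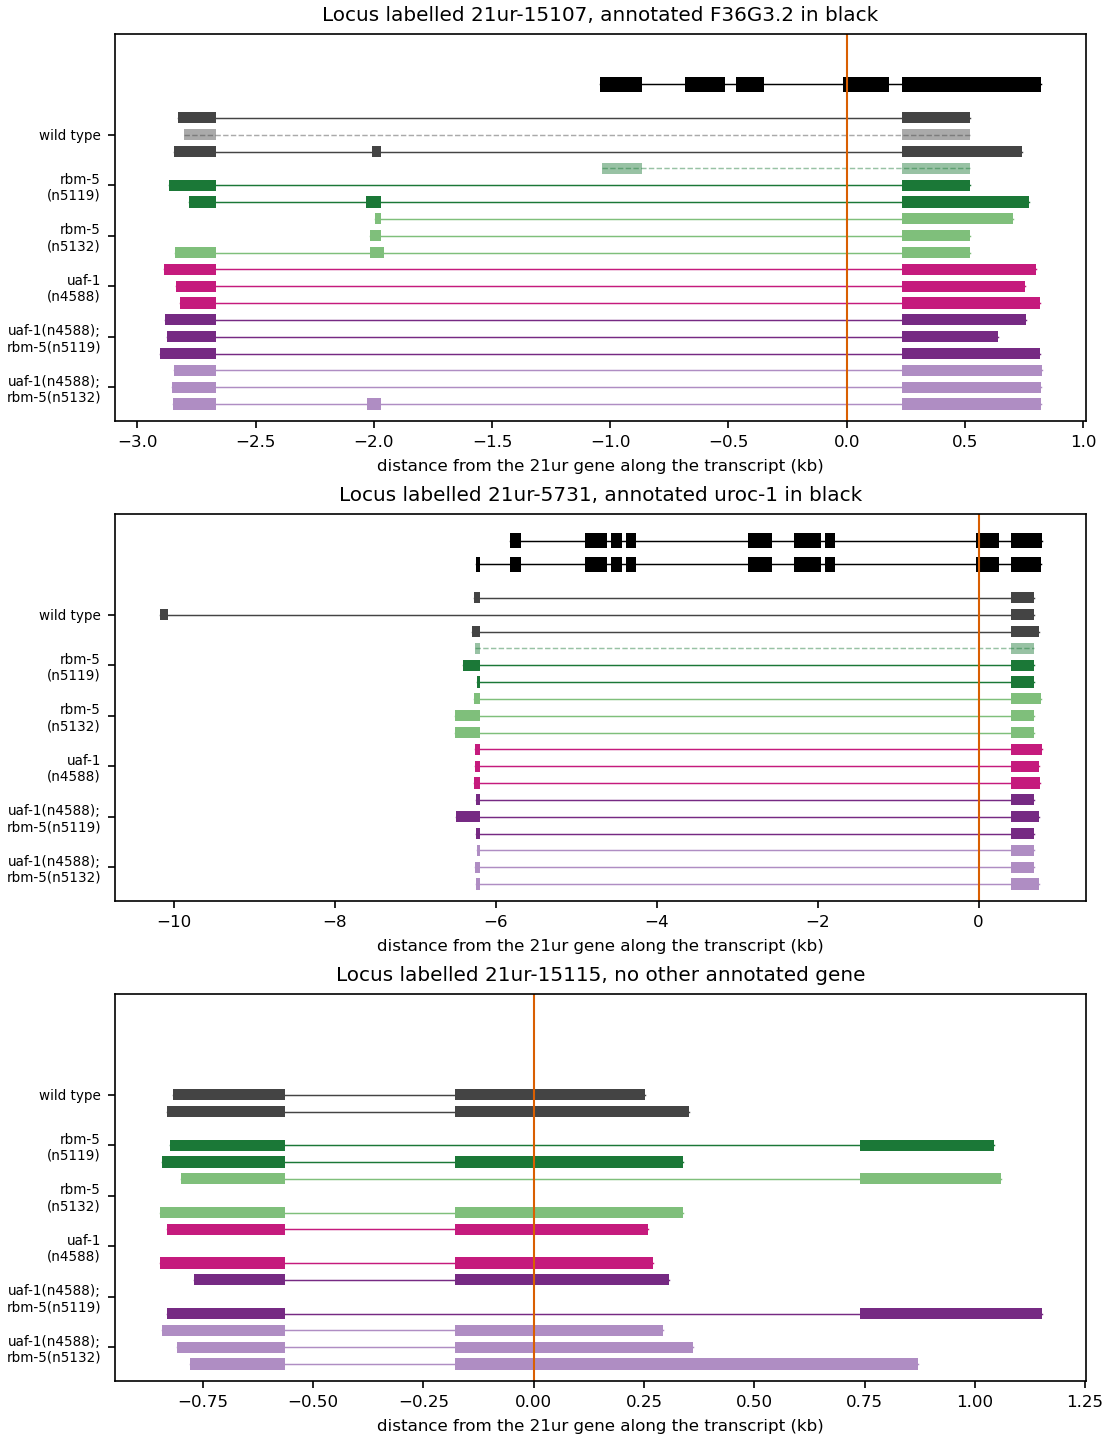
First and last exons (coloured boxes) of the 3 loci in each library, against distance from the 21ur gene (orange line) in kb along the transcript, with the exons of the annotated transcripts in black; internal exons of the assembled transcripts are not in the lists and are not drawn, and pale boxes on dashed lines are joint labels. The far first exon of 21ur-15107 is shown in 14 libraries with the name alone, the last exon of 21ur-5731 begins at the same place in 17 of 17, and 21ur-15115 ends in a distant exon in 3 of 13.

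Start levels of 21ur-15107, summed over its start events, ranged from 7.99 to 27.6 FPKM over 16 libraries, with a median of 16.2 FPKM. In wild type they were 27.6 and 14.2 FPKM in replicates 1 and 3. In rbm-5(n5119) they were 7.99 and 18.1 FPKM in replicates 2 and 3. The 2 wild-type values are far apart and enclose the higher rbm-5(n5119) value. In rbm-5(n5132) the start level was 14.9, 13.9 and 14.0 FPKM. In uaf-1(n4588) it was 18.9, 16.3 and 16.1 FPKM. These 2 strains had close replicates, and every uaf-1(n4588) library was above every rbm-5(n5132) library. In uaf-1(n4588);rbm-5(n5119) it was 18.2, 25.1 and 24.2 FPKM. In uaf-1(n4588);rbm-5(n5132) it was 17.3, 12.9 and 15.9 FPKM. All 3 libraries of the first of these double mutants were above all 3 of the second. By end level the libraries overlapped in each of these pairs of strains. End levels were 19.9 to 30.1 FPKM in uaf-1(n4588) and 22.9 to 30.7 FPKM in rbm-5(n5132). They were 23.5 to 40.3 FPKM in uaf-1(n4588);rbm-5(n5119) and 24.1 to 31.1 FPKM in uaf-1(n4588);rbm-5(n5132). Neither pair was compared by a test of its own. The joint labels, kept apart, had start levels of 5.90 FPKM in wild type replicate 2 and 20.9 FPKM in rbm-5(n5119) replicate 1.

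The strain means of 21ur-15107 ran, from high to low, 22.5 ± 3.75 FPKM in uaf-1(n4588);rbm-5(n5119) (SD, n = 3), 20.9 ± 9.50 in wild type (SD, n = 2), 17.1 ± 1.53 in uaf-1(n4588) (SD, n = 3), 15.3 ± 2.26 in uaf-1(n4588);rbm-5(n5132) (SD, n = 3), 14.3 ± 0.538 in rbm-5(n5132) (SD, n = 3) and 13.03 ± 7.13 in rbm-5(n5119) (SD, n = 2). No neighbours in this order were separated by more than the larger of their SDs, and the libraries of each neighbouring pair overlapped. The mean over libraries, 17.2 FPKM, stood at the 74.3rd percentile of the 14295 genes.

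21ur-5731 sits inside a metabolic gene. The 21ur gene (WBGene00167413, sequence name Y51H4A.536) lies at IV:16536507-16536527 of WBcel235, on the minus strand, wholly within a coding exon of uroc-1 (Y51H4A.7, IV:16535725-16542749, same strand). uroc-1 encodes urocanate hydratase, an enzyme of histidine breakdown. The exon is number 9 of 10 in transcript Y51H4A.7.1 and number 8 of 9 in Y51H4A.7.2. Of 24 annotated 21ur genes inside Y51H4A.7.1, 16 are on its strand, and 21ur-5731 is the single one that lies wholly in an exon. The name stood alone in 17 libraries. rbm-5(n5119) replicate 1 was labelled with Y51H4A.7 and 21ur-5731 together, and uroc-1 appeared in no other label.

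The 21ur-5731 locus had the outline of uroc-1. The inner edge of its last exon was at 16536105 in 17 of 17 libraries and that of its first exon at 16542707 in 16 of 17, both annotated edges of uroc-1. The exception was wild type replicate 2, whose first exon edge at 16546582 is not annotated and whose start lay 3934 bases upstream of that of uroc-1. In the others the start lay from 13 bases inside the annotated start (an offset of -13) to 268 bases upstream of it. The span was 6924 to 7244 bases in 16 libraries and 10871 bases in wild type replicate 2, with a median of 7030 bases over all. It gave an F of 0.87 over strains and an adjusted p of 1 by limma. The jointly labelled library, rbm-5(n5119) replicate 1, had the same first and last exon edges. It was also the only library in which another event was listed at these 3 loci, a retained intron at IV:16540890-16540937 with 4.38 FPKM retained and 12.7 FPKM spliced.

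Start levels of 21ur-5731 ranged from 5.54 to 23.8 FPKM over 17 libraries, with a median of 10.2 FPKM. In wild type they were 15.8, 7.49 and 23.8 FPKM. In rbm-5(n5119) they were 10.2 and 6.60 FPKM in replicates 2 and 3, beside 4.38 FPKM under the joint label of replicate 1. The wild-type libraries covered nearly the whole range seen in the series, and their lowest value lay below the higher rbm-5(n5119) value. In rbm-5(n5132) the start level was 22.0, 7.11 and 6.62 FPKM. In uaf-1(n4588) it was 11.7, 16.4 and 18.4 FPKM. Replicate 1 of rbm-5(n5132) lay above all uaf-1(n4588) libraries and its other two replicates below them. In uaf-1(n4588);rbm-5(n5119) it was 5.54, 6.84 and 12.98 FPKM. In uaf-1(n4588);rbm-5(n5132) it was 13.5, 6.46 and 10.2 FPKM. The 2 double mutants overlapped each other and both reached into the range of uaf-1(n4588).

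The strain means of 21ur-5731 ran, from high to low, 15.7 ± 8.18 FPKM in wild type (SD, n = 3), 15.5 ± 3.44 in uaf-1(n4588) (SD, n = 3), 11.9 ± 8.72 in rbm-5(n5132) (SD, n = 3), 10.1 ± 3.54 in uaf-1(n4588);rbm-5(n5132) (SD, n = 3), 8.46 ± 3.97 in uaf-1(n4588);rbm-5(n5119) (SD, n = 3) and 8.40 ± 2.55 in rbm-5(n5119) (SD, n = 2). Again no neighbours were separated by more than the larger of their SDs. The mean over libraries, 11.9 FPKM, stood at the 70.6th percentile of the 14295 genes and the median span at the 92.3rd.

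21ur-15115 is the only one of the 3 with no host gene. The 21ur gene (WBGene00174211, sequence name R09F10.12) lies at X:8297981-8298001 of WBcel235, on the minus strand. Neither it nor the assembled locus overlaps another annotated gene. Over all libraries the locus reached from 8296830 to 8298829, which left 141 bases to R09F10.3, on the plus strand, and 289 bases to ced-13, on the minus strand. ced-13 encodes a BH3-only protein of the programmed cell death pathway. The name stood alone in 13 libraries. In the other 5, wild type replicate 1, rbm-5(n5119) replicate 1, rbm-5(n5132) replicate 2, uaf-1(n4588) replicate 2 and uaf-1(n4588);rbm-5(n5119) replicate 2, nothing was listed at this place.

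The 21ur-15115 locus was listed at 0 FPKM in 10 of its 13 libraries. The libraries above 0 were rbm-5(n5119) replicate 2 with 0.996 FPKM, rbm-5(n5132) replicate 1 with 1.13 FPKM and uaf-1(n4588);rbm-5(n5119) replicate 3 with 3.11 FPKM. Start and end levels were equal, within 0.001 FPKM, in all 13. These 3 libraries were also the 3 with another last exon. Their last exon edge was at 8297242 and their span 1860 to 1984 bases, with the 21ur gene between the first and the last exon. In the 10 libraries at 0 the last exon edge was at 8298160, the span was 1070 to 1650 bases, and the 21ur gene lay inside the last exon. The first exon edge was at 8298545 in 13 of 13. Every library of wild type, uaf-1(n4588) and uaf-1(n4588);rbm-5(n5132) that listed the locus had it at 0. The mean over libraries, 0.403 FPKM, was below the minimum of 1 FPKM for a test of expression. The span gave an F of 0.56 over strains and an adjusted p of 1 by limma.

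**Figure D3:**
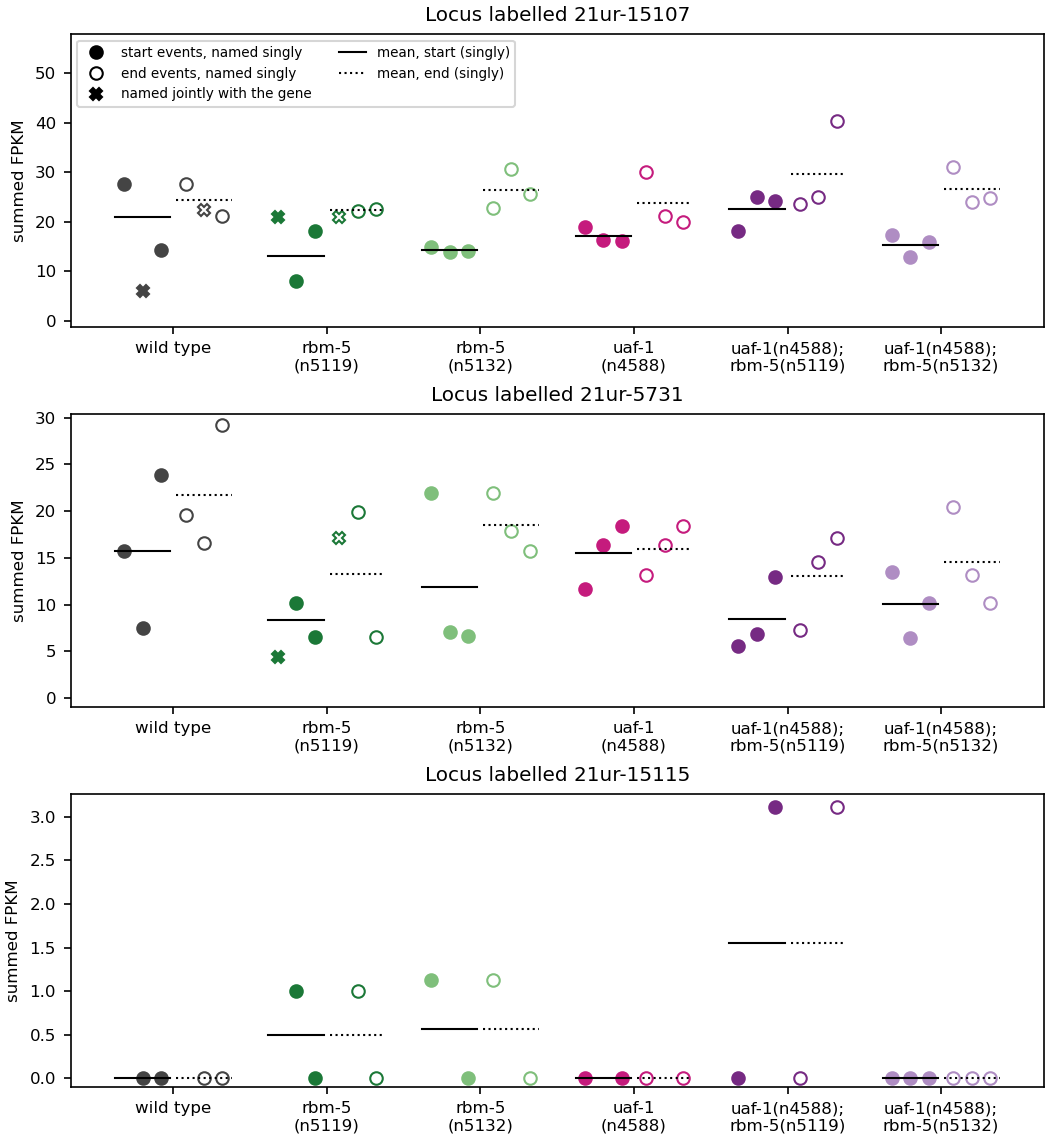
Summed FPKM of start events (filled) and end events (open) at the 3 loci, one point per library in order of replicate number, by strain; crosses are libraries with a joint label and lines are means over libraries with the name alone. Strains next to each other in the order of start means overlap at 21ur-15107 and 21ur-5731, and 21ur-15115 is above 0 in 3 libraries, with 3.11 FPKM at most.

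At both abundant loci the end carried at least as much signal as the start. End levels of 21ur-15107 ranged from 19.9 to 40.3 FPKM, with a median of 24.5 FPKM. They were above the start level in 14 of 16 libraries and equal, within 0.001 FPKM, in 2, with a median ratio of end to start of 1.55 (1 to 2.78). End levels of 21ur-5731 ranged from 6.60 to 29.2 FPKM, with a median of 16.6 FPKM. They were above the start level in 12 of 17 libraries and equal in 5, with a median ratio of 1.32 (1 to 2.52). The order of strains changed with the measure. By end level, wild type was the fourth strain for 21ur-15107, at 24.4 ± 4.58 FPKM (SD, n = 2), and stayed the highest for 21ur-5731, at 21.8 ± 6.58 FPKM (SD, n = 3).

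No strain difference at these loci passed the test on log2(FPKM + 1). limma's moderated F test over the 6 strains gave F = 1.58 for 21ur-15107 and F = 0.999 for 21ur-5731, with an adjusted p of 0.843 for each. Of 7160 genes tested, 24 (0.335%) were called, and 0 of the 2 loci tested. The number of genes with an unadjusted p under 0.05 was 404, and neither locus was among them. With the jointly labelled libraries added, a choice made after seeing the data, F was 0.70 with an adjusted p of 0.864 for 21ur-15107 and 1.42 with an adjusted p of 0.843 for 21ur-5731.

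uaf-1(n4588) was compared with wild type to see the effect of the U2AF allele alone. The difference on the log2(FPKM + 1) scale was -0.21 (SE 0.35) for 21ur-15107 and 0.09 (SE 0.50) for 21ur-5731, both with a limma adjusted p of 0.999. Here 15 of 8436 genes (0.178%) were called. The sign for 21ur-5731 turned by end level (-0.40), without wild type replicate 2 (-0.33) and without uaf-1(n4588) replicate 3 (-0.037). Averaged over the wild-type, n5119 and n5132 backgrounds, the effect of uaf-1(n4588) was 0.24 (SE 0.19, adjusted p = 0.931) for 21ur-15107 and -0.0093 (SE 0.30, adjusted p = 0.997) for 21ur-5731, with 47 of 7160 genes (0.656%) called. With each library scaled to 1 median the averaged effect for 21ur-15107 was -0.085. In the n5119 background all 3 uaf-1(n4588);rbm-5(n5119) libraries were above both rbm-5(n5119) libraries in start and end level of 21ur-15107. The third rbm-5(n5119) library, under the joint label, had a start level of 20.9 FPKM, above the lowest double-mutant library at 18.2 FPKM.

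The rbm-5 alleles alone were compared with wild type. With n5119 the difference on the log2(FPKM + 1) scale was -0.67 (SE 0.38, limma adjusted p = 0.649) for 21ur-15107 and -0.72 (SE 0.56, adjusted p = 0.657) for 21ur-5731, and 2 of 8560 genes (0.0234%) were called. The median over all genes was itself -0.23 in this comparison, and with each library scaled to 1 median both loci turned to higher, with 0.57 and 0.38. With n5132 the difference was -0.45 (SE 0.35) for 21ur-15107 and -0.44 (SE 0.50) for 21ur-5731, both with an adjusted p of 0.998, and 1 of 8686 genes (0.0115%) was called. By end level 21ur-15107 was 0.11 higher in that comparison. These comparisons and that of uaf-1(n4588) share the wild-type libraries.

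The double mutants were compared with uaf-1(n4588), the comparison that asks what rbm-5 alleles do where U2AF is altered. With n5119 the difference was 0.37 (SE 0.31, limma adjusted p = 0.821) for 21ur-15107 and -0.86 (SE 0.50, adjusted p = 0.819) for 21ur-5731, and 2 of 8198 genes (0.0244%) were called, with a median over all genes of -0.14. With n5132 it was -0.15 (SE 0.31, adjusted p = 0.962) and -0.61 (SE 0.50, adjusted p = 0.822), and 7 of 8202 genes (0.0853%) were called. By end level 21ur-15107 was 0.18 higher in that comparison. Both comparisons share the uaf-1(n4588) libraries. The SEs of 0.19 to 0.56 on the log2 scale set what could be seen, and a difference that missed the threshold does not show that the strains were alike.

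**Figure D4:**
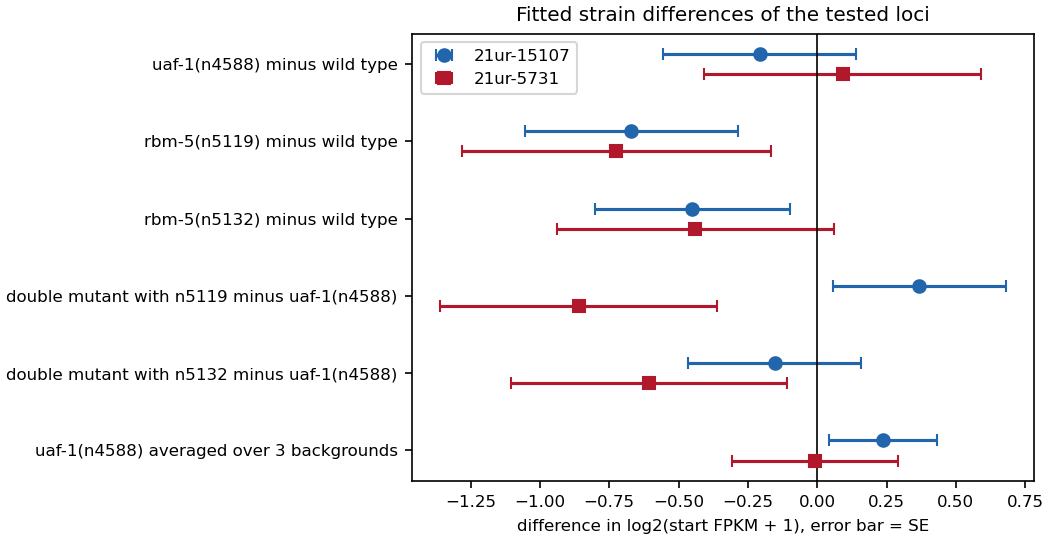
Fitted differences in log2(start FPKM + 1) for 21ur-15107 (circles) and 21ur-5731 (squares) in 6 strain comparisons, with standard errors as bars. The differences run from -0.86 to 0.37 and none passed the test.

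The number of piRNA names standing alone was lowest in rbm-5(n5119), and its difference between strains with and without uaf-1(n4588) did not pass the test. Wild type had 23, 19 and 25 names, rbm-5(n5119) had 9, 14 and 14, and rbm-5(n5132) had 23, 19 and 25. uaf-1(n4588) had 33, 18 and 24 names, uaf-1(n4588);rbm-5(n5119) had 19, 20 and 23, and uaf-1(n4588);rbm-5(n5132) had 19, 25 and 21. The 3 rbm-5(n5119) libraries had fewer names than each of the other 15, which had 18 to 33. This contrast was picked after the counts were seen and carries no test. Of all genes with a single label, 21ur names were 0.051% to 0.084% in rbm-5(n5119) libraries and 0.109% to 0.198% in the others. Genes with a single label numbered 16677 to 17518 in rbm-5(n5119) and 16002 to 17394 in the others. With uaf-1(n4588) the mean was 22.4 ± 4.64 names (SD, n = 9) and without it 19 ± 5.64 (SD, n = 9), a difference of 3.44 with a two-sided exact permutation p of 0.194. When names in joint labels were counted too, libraries with uaf-1(n4588) had 551 to 673 names and libraries without it 509 to 601, a difference of 48.6 in the means with an exact permutation p of 0.0247. Both permutation tests moved libraries singly and not by strain, so they do not show an effect shared by the 3 backgrounds. In this count uaf-1(n4588);rbm-5(n5132) had 673, 630 and 660 names, uaf-1(n4588) 551, 579 and 559, and wild type 514, 571 and 578. Libraries with uaf-1(n4588) also had fewer single labels of any gene, 16002 to 17193 against 16663 to 17518 without it, and the part of this in the difference was not tested. The 2 sets overlapped, and rbm-5(n5119), at 509 to 601 names, no longer stood below the rest, which had 514 to 673.

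**Figure D5:**
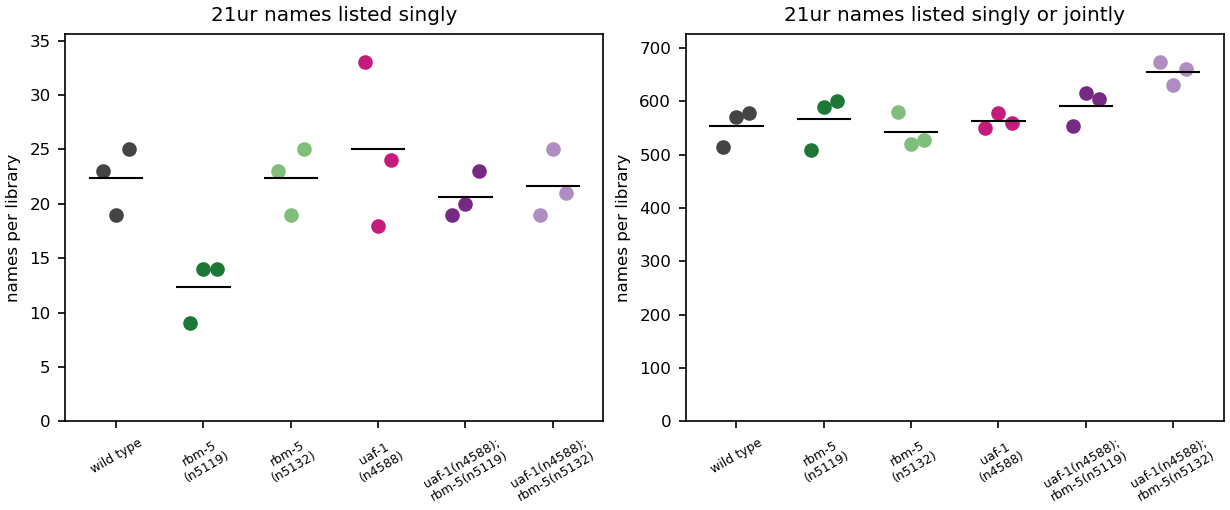
Number of 21ur names per library, standing alone (left) and alone or in joint labels (right), by strain, with a line at each mean. The 3 rbm-5(n5119) libraries have 9 to 14 names alone, below all others, and are within the range of the others when joint labels are counted.

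The genes that make and use piRNAs were followed beside the loci, from a list of 27 of which 25 were listed. prg-1, the piRNA Argonaute, had 22.2 to 68.9 FPKM over 18 libraries, with a median of 44.0 FPKM, and did not pass limma's F test over strains (F = 2.13, adjusted p = 0.843). Of the 15 genes of the list tested, 0 were called, and 0 in each of the 6 strain comparisons. In rbm-5(n5132) against wild type 16 of 17 tested genes of the list had a higher level, with a median difference of 0.53 on the log2(FPKM + 1) scale against -0.0062 over all genes. The 10 maternal and germline markers summed to 1221 to 1960 FPKM in rbm-5(n5132) and to 294 to 1539 FPKM in wild type, and their part in this difference was not tested. A low sum can also come from a marker that did not stand alone in a library, which added 0. Against wild type, 12 of 16 were higher in uaf-1(n4588) and 14 of 18 in rbm-5(n5119), and these 3 comparisons share the wild-type libraries. The median differences of the list were 0.21 in uaf-1(n4588) and 0.30 in rbm-5(n5119), against -0.057 and -0.23 over all genes. Counts of higher genes were drawn up without scaling of libraries and carry no test. In the double mutants against uaf-1(n4588), 9 of 18 were higher with n5119 and 8 of 16 with n5132.

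By smallest F-test p, snpc-3.1, prg-2 and snpc-3.2 came before prg-1 in this list. snpc-3.1 encodes a subunit of the complex that starts transcription of small nuclear RNAs. Its level was 6.63 ± 1.28 FPKM in rbm-5(n5132) (SD, n = 3) and 2.64 ± 0.772 in wild type (SD, n = 3), and it was listed at 0 in both rbm-5(n5119) libraries that held it (F = 7.82, limma adjusted p = 0.194). prg-2, a close copy of prg-1, had 4.70 ± 0.281 FPKM in wild type (SD, n = 3), and 1.01 ± 1.74 in uaf-1(n4588) (SD, n = 3), where 2 libraries were at 0 (log2 difference -1.84, SE 0.43, limma adjusted p = 0.183). snpc-3.2, a close copy of snpc-3.1, gave F = 2.82 with an adjusted p of 0.843. Reads of such copies can be split between them, so single values of prg-1, prg-2, snpc-3.1 and snpc-3.2 are uncertain.

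Names just outside the rule, which had 2 or more libraries in 5 strains only, were 6, and the listed locus of each overlaps a protein-coding gene on its strand. 21ur-14724 (locus over abcf-3) had a mean of 27.5 FPKM over 15 libraries, 21ur-13444 (over C53B4.3) 12.98 FPKM over 15, and 21ur-8643 (over ZK381.2) 6.51 FPKM over 15. 21ur-12756 (over D2005.4) had 16.1 FPKM over 14 libraries, 21ur-13301 (over dnj-23 and dyrb-1) 211 FPKM over 13, and 21ur-14833 (over ssb-1) 177 FPKM over 12. For 21ur-12756, 21ur-13301 and 21ur-14833 the 21ur gene itself did not lie inside the listed locus in every library. 21ur-15115, the least listed name inside the rule, was lower than all of them, with 0.403 FPKM over 13 libraries.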

How the data were processed

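The authors deposited 1 list of transcript events per library with an FPKM per event, per the file headers. Reads were mapped with TopHat2 2.0.12 and Bowtie2 to WBcel235, per the submitters' processing notes. The assembler and event caller are not given in the sources used here. Locus names differ between libraries, and no scaling between libraries is stated.

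From these lists, start FPKM was summed over loci that name 1 gene. The span was taken from the lowest to the highest position of the longest such locus. log2(FPKM + 1) of genes in at least 2 libraries of each strain compared, with a mean of at least 1 FPKM, was fitted with 1 mean per strain over all 18 libraries (limma 3.58.1, R 4.3.3), with Benjamini-Hochberg adjustment over all genes tested and calls under 0.05. Missing libraries were dropped from a gene's fit, not imputed. The fit was tested on simulated data. Annotation was Ensembl release 115 on WBcel235; no sequence is printed. All 3 loci are named, and, of the pathway list, prg-1 and the 4 genes with the smallest F-test p. The loci and lists were chosen with earlier results of these data known. Alternatives changed the pseudocount, filter, scaling, event type, zeros, replicates and fit.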

Additional observations from a re-analysis of the deposited data

Results flagged for a closer look

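In 5 of 20 groups of libraries, split by uaf-1(n4588), 1 library stood apart from the rest by Dixon's test. Chance gives about 1 group in 20 only for independent groups without ties. These groups were not of that kind, so the 5 cannot be set against that rate. The span of 21ur-5731 was 10871 bases in wild type replicate 2, against at most 7205 bases in the other libraries without uaf-1(n4588). The span of 21ur-5731 was 7244 bases in uaf-1(n4588);rbm-5(n5119) replicate 2, against at most 7037 bases in the others with uaf-1(n4588). Start and end level of 21ur-15115 were each 3.1091 FPKM in uaf-1(n4588);rbm-5(n5119) replicate 3, with the other 6 libraries with uaf-1(n4588) that listed it at 0. These levels are equal in each library, so the same value is counted again. With all others at 0, any level above 0 stands apart. The number of piRNA names standing alone was 33 in uaf-1(n4588) replicate 1, against 18 to 25 in the others with uaf-1(n4588).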

How the results depend on the processing

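Of 268 values of the 3 loci recomputed under alternatives, 251 kept their side of the threshold and, for differences, their direction. Another 16 reversed, and 1, the span of 21ur-15107 without rbm-5(n5132) replicate 3, passed the threshold. F values have no direction, so they could not reverse. Some alternatives could not move an estimate. For 21ur-15107 in uaf-1(n4588) against wild type it stayed at -0.207 without the filter and without wild type replicate 2. The 251 are therefore not separate checks. In expression the lowest adjusted p was 0.381. Reversed differences in log2(FPKM + 1) were 21ur-5731 in uaf-1(n4588) against wild type by end level (-0.40), 21ur-15107 (0.57) and 21ur-5731 (0.38) in rbm-5(n5119) against wild type with libraries scaled to 1 median, 21ur-15107 by end level in rbm-5(n5132) against wild type (0.11) and in its double mutant against uaf-1(n4588) (0.18), and the averaged uaf-1(n4588) effect for 21ur-15107 when scaled (-0.085) and for 21ur-5731 with replicates 2 and 3 only (0.25). With each library left out in turn, 21ur-5731 ranged from -0.33 to 0.44 in uaf-1(n4588) against wild type, below 0 without wild type replicate 2 or uaf-1(n4588) replicate 3, and from -0.15 to 0.16 in the averaged effect, above 0 without each of 7 libraries. The cause was not tested.

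Counts of genes called moved as follows. In the F test (24) they were 42 without the filter and 8 with the replicate block. In uaf-1(n4588) against wild type (15) they were 4 scaled, 6 with the block and 4 on its own 6 libraries. In rbm-5(n5119) against wild type (2) they were 0 without the filter, 8 with replicates 2 and 3, 0 with the block, 0 with values at 0 missing and 0 on its own libraries; the counts at an unadjusted p under 0.05 were 787, 820, 505, 469 and 282. In rbm-5(n5132) against wild type (1) they were 2 with a pseudocount of 0.1, 2 without the filter, 0 by end level (420 unadjusted), 6 with replicates 2 and 3, 2 without the 2 libraries with most values at 0, and 2 on its own libraries. In the n5119 double mutant (2) they were 4 with a pseudocount of 0.1, 5 scaled, 4 by end level, 1 with the block, 1 with values at 0 missing and 0 on its own libraries (376 unadjusted). In the n5132 double mutant (7) they were 27 without the filter, 2 with the block, 2 with values at 0 missing and 2 on its own libraries. In the averaged effect (47) they were 74 scaled and 30 with replicates 2 and 3, and in span (1119) 3686 with replicates 2 and 3. The difference in names was 48.6 when joint labels were counted.

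With each library left out, the counts ranged from 5 to 28 in the F test, 5 to 16, 0 to 5, 0 to 4, 2 to 5, 2 to 10 and 24 to 50 in the 6 comparisons in the order above, and 26 (without rbm-5(n5119) replicate 1) to 718 in span. Leaving out wild type replicate 3 gave the lowest count in the F test and in the 3 comparisons with wild type, tied with uaf-1(n4588);rbm-5(n5119) replicate 3 in the F test, uaf-1(n4588) replicate 3 in uaf-1(n4588) against wild type and rbm-5(n5132) replicate 3 in rbm-5(n5132) against wild type; the loci called were 0, except 0 to 1 in span. The difference in names ranged from 2.13 to 4.19.

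Of 45 pairs of libraries with the same replicate number, 21 correlated above 0.1 in their deviations (-0.36 to 0.41, median 0.091, against a median of -0.034 for different numbers), and 13 of 18 libraries correlated best with their own number. Summed start FPKM was also higher in every library numbered 1, at 1250844 to 2072816, than in any other, at 803936 to 1136360. These values point to something shared by libraries of the same number. Not every pair was above 0.1 and the labels name no pairing, so the fit without the block was kept. With the replicate block 0 of the loci were called, and the F test called 8 genes against 24 without it. Unknown read depth, 2 libraries in some strains and values at 0 that may be failed estimates limit all levels.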
